A study of Rattus norvegicus with 164 samples.

Results

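RNA of the prelimbic cortex of outbred rats was measured by RNA sequencing, and 11 of the 130 libraries with expression values had RNA of a striatal kind: they were all the libraries in which Drd2, the dopamine D2 receptor gene, had a level above 6. A level is log2 of the counts per 1000000 (CPM) plus 1. These 11 libraries were divided by the level of Slc17a7, the gene of the vesicular glutamate transporter VGLUT1 of cortical excitatory neurons. Side A held the 7 libraries at 5.5 or above and side B the 4 libraries below 5.5, and the remaining 119 libraries served as the measured cortical reference. The question for the division was whether side A looked like side B with cortical RNA added in proportion, or like another part of the striatum. All 11 animals belonged to the 68 whose identifier is a decimal number, and none to the other identifier series of the study. Every library is labelled as poly(A) RNA of prelimbic cortex from an outbred laboratory rat. Strain, age, sex, treatment, dissection and extraction are not given in the sources used here. Libraries are named by their replicate number in the decimal group, which follows the order of deposit and pairs nothing.

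The striatum is made mostly of GABAergic projection neurons, which carry either D1 or D2 dopamine receptors and use DARPP-32 (Ppp1r1b) in their signalling. It holds almost no cell bodies of VGLUT1 neurons, whose cell bodies lie in the cortex and related pallial regions such as the claustrum, the endopiriform nucleus and the basolateral amygdala. Glutamatergic neurons of those regions share transcription factors such as Tbr1, Neurod2 and Neurod6, but differ in genes that mark a layer or a region. In a bulk sample the RNA of all cells in the dissected piece is mixed, so fewer cells of a type and less RNA per cell cannot be told apart.

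The libraries were chosen by their measured levels of Drd2 and Slc17a7, so these values are a description and no test of them is reported. Slc17a7 was left out of the adjustment of p-values, while Drd2 stayed among the 15277 genes adjusted together. Slc17a7 in side B was 2.75 in library 64, 3.50 in 55, 3.58 in 34 and 5.06 in 56. In side A it was 5.77 in library 53, 5.97 in 59, 6.73 in 3, 7.93 in 4, 8.21 in 63, 8.55 in 58 and 8.83 in 57. Libraries 56 and 53 thus stood just outside and just inside the limit. Within side A the widest step lay between libraries 3 and 4, so that 3 libraries were low and 4 high. The other 119 libraries ranged from 9.58 to 11.20, above all 11. Drd2 ran from 7.25 to 7.90 in the 11 libraries and reached at most 4.65 in the other 119. The sides were cut by a measured gene and not by a label. Genes made by the same neurons as Slc17a7 had to differ with it, and their p-values are no independent support.

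The 11 libraries carried the defining striatal genes at levels far above those of the other libraries, on both sides. Ppp1r1b was 11.08 ± 0.16 (SD, n = 4) in side B and 10.99 ± 0.21 (SD, n = 7) in side A, against 6.70 in the mean of the other 119. Adora2a, an adenosine receptor gene of D2 neurons, was 8.61 ± 0.10 and 8.42 ± 0.25, against 2.57. Drd1, the D1 receptor gene, was 8.47 ± 0.09 and 8.36 ± 0.20, against 4.33. The cortical label was not borne out in side B, where the cortical transcription factor genes Neurod6, Neurod2 and Emx1 had means of 0.72, 0.82 and 0.22. The mean over 15 cortical excitatory neuron genes, Slc17a7 among them, was 2.86 to 3.25 in side B, 3.51 to 5.11 in side A and 5.83 to 7.45 in the other libraries. Slc17a7 cut the sides, so the gap between their means was in part set by the rule and is a description. Summed counts, in units of 1000000, were 18.9 to 45 per library. Their mean was 28.4 ± 8.77 (SD, n = 7) in side A and 21.6 ± 2.87 (SD, n = 4) in side B, a difference within the spread (two-sided exact permutation test, p = 0.121).

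Of the 15 cortical excitatory neuron genes listed beside Slc17a7, 14 could be compared, with a mean level of at least 1 over the 11 libraries. All 14 had a higher mean in side A, with a median difference of 1.21 log2 units, against -0.01 over the 15277 genes compared. In 7 of the 14 every library of side A lay above every library of side B, which held for 1.47% of all genes compared. Neurod6, Neurod2 and Emx1 had side B means under the comparison limit of 1 and reached it through side A, where they were high, so these counts and the median describe the list and support nothing. None of the 14 passed the test (limma, adjusted p under 0.05), and over all genes 8 passed, or 0.0524%.

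Tbr1, a transcription factor of deep-layer glutamatergic neurons, followed the order of Slc17a7 in every library but 55 and 34, which were exchanged. It was 1.40, 1.74, 1.64 and 1.95 in libraries 64, 55, 34 and 56 of side B. It was 2.75, 3.28, 3.82, 4.75, 5.09, 5.27 and 5.48 in libraries 53, 59, 3, 4, 63, 58 and 57 of side A. The sides did not overlap, and the difference was 2.67 with a standard error (SE) of 0.45 and a limma adjusted p of 0.0525. Neurod6, which marks differentiated pyramidal neurons, was 0.40 to 1.05 in side B and 1.69 to 4.25 in side A (difference 2.26, SE 0.41, limma adjusted p = 0.0694). Neurod2, of the same family, was 0.63 to 1.25 and 1.73 to 4.38 (limma adjusted p = 0.0795).

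Slc30a3, the zinc transporter of glutamatergic synaptic vesicles, was 0.70 to 1.83 in side B and 2.15 to 5.13 in side A, a difference of 2.44. Nrn1, the gene of neuritin, was 1.66 to 2.72 against 2.76 to 5.14, and Nptx1, which encodes neuronal pentraxin 1, was 4.96 to 5.61 against 5.79 to 7.20. Emx1, a transcription factor of the dorsal telencephalon, was 0.13 to 0.40 against 0.60 to 2.55. For these 4 genes, too, the sides did not overlap.

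The remaining genes of the list differed less. Fezf2, which specifies subcortical projection neurons of layer 5, was 1.85 ± 0.15 (SD, n = 4) and 2.04 ± 0.21 (SD, n = 7), against 6.06 in the other libraries. Bhlhe22, another transcription factor gene, differed by 0.40, Lhx2 by 0.21, Mef2c by 0.06, the potassium channel subunit gene Kcnv1 by 0.19 and the synaptic vesicle gene Sv2b by 0.17. Neurod1 lay below the limit for comparison, with means of 0.15 and 0.82.

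**Figure D1:**
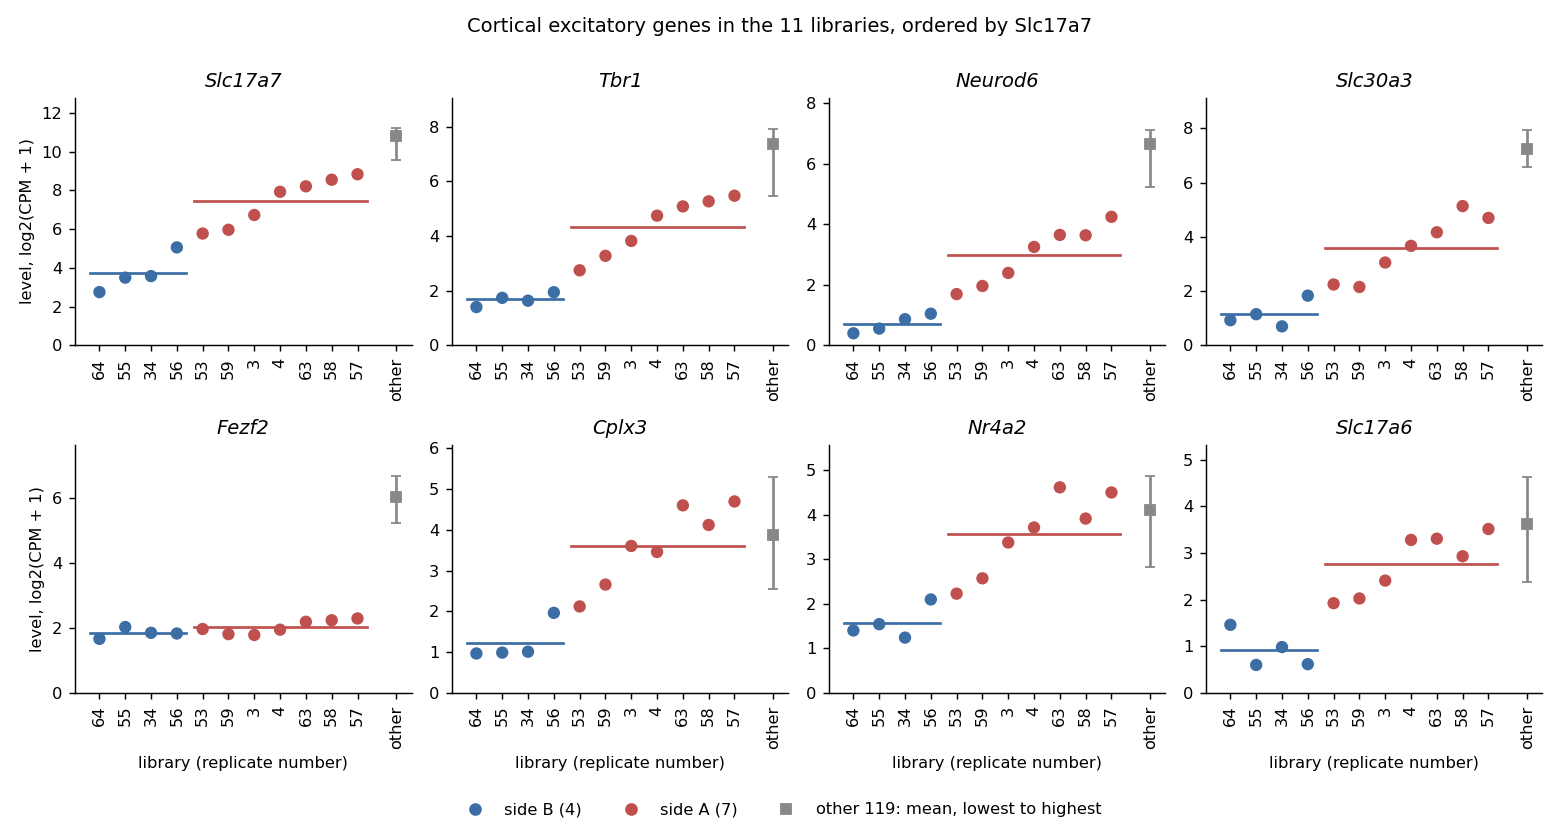
Level, as log2(CPM + 1), of 8 genes in each of the 11 libraries, ordered from left to right by Slc17a7; blue points are side B, red points side A, lines the side means, and the grey square with its bar the mean and the lowest to highest value of the other 119 libraries. Tbr1 and Neurod6 climb with Slc17a7 and stay under the mean of the other libraries. Tbr1 in library 57 (5.48) is just above its lowest value in the other libraries (5.46). Fezf2 stays between 1.67 and 2.30, and Cplx3 and Nr4a2 exceed their means in the other libraries in 63 and 57.

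Across all 15277 genes, 8 rose in side A and none fell (limma, adjusted p under 0.05; 0.0524% rose and 0% fell). At an unadjusted p under 0.05 there were 964 higher and 919 lower genes. All 8 had the same adjusted p of 0.0495, just under the threshold, and 225 genes lay without overlap above side B and 129 below it (1.47% and 0.844%). Without library 56, the side B library with the most Slc17a7, these were 463 and 583, although leaving out any library can only keep or raise them. The count depended on the fit: it was 0 with median-of-ratios scaling, 70 with the summed counts as a covariate, 272 with the limit at 6.0 and 691 with Slc17a7 as a continuous measure. Leaving out 1 library gave 0 to 73 genes, with 73 without library 53, 56 without 59, 1 without 56 and 0 without any other.

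Slc17a6 encodes VGLUT2, the vesicular glutamate transporter of thalamic and many subcortical neurons. It was 1.46, 0.60, 0.98 and 0.62 in libraries 64, 55, 34 and 56. In libraries 53, 59, 3, 4, 63, 58 and 57 it was 1.92, 2.02, 2.41, 3.28, 3.31, 2.93 and 3.51. It rose by 1.86 (SE 0.30) without overlap, and the other 119 libraries had a mean of 3.62. Tfap2d, an AP-2 family transcription factor gene named here after its values were seen, was 0.40, 0.69, 0.30 and 0.57 in side B in the same order. In side A it was 1.17, 1.43, 1.76, 1.93, 2.09, 2.42 and 2.22, a rise of 1.37 (SE 0.21). In the other 119 libraries its mean was 0.08 and its highest value 0.78, so each library of side A lay above every one of them. Slc17a6 and Tfap2d both had side B means under 1 and reached the comparison limit through side A, and neither was called with no such limit. Both calls were also lost when any library other than 53 or 59 was left out.

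The other 6 were genes of higher level with smaller differences. Shisa6, which encodes an auxiliary protein of AMPA receptors, rose from 2.80 ± 0.21 (SD, n = 4) to 3.75 ± 0.29 (SD, n = 7). Kcnab3, a potassium channel beta subunit gene, rose by 0.85, and Garnl3 by 0.69. Nefm, the medium neurofilament gene, rose by 0.58 to 7.20, above the mean of 6.31 in the other libraries. Kcnip3, the gene of a calcium sensor that binds potassium channels, rose by 0.54, and Lynx1, which encodes a modulator of nicotinic receptors, by 0.40. In all 6 the sides did not overlap. The deposited table places the starts of Slc17a6, Tfap2d and Garnl3 on chromosomes 1, 9 and 3, and its build is not named in the labels.

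To set each gene against the cortical reference, the difference between the sides in mean CPM was divided by the distance from side B to the mean of the other 119 libraries. This share is the percentage of that distance which side A had covered. If side A were side B with a fixed part of its RNA replaced by RNA of the average other library, every gene would have the same share. Slc17a7 had a mean of 14.8 CPM in side B, 227 in side A and 1816 in the other libraries, a share of 11.8%.

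The shares of cortical genes were not the same. There were 108 genes besides Slc17a7 with a mean of at least 10 CPM in the other libraries and at least 8 times that of side B. Their median share was 6.82%, with 25% of genes under 4.02% and 25% above 10.9%. The side B mean that chose these genes also enters the share, so the shares are a description. Of the 108, 60 lay within a 2-fold range of the Slc17a7 share (5.89 to 23.6%), 44 lay below and 4 above. Slc17a7 cut the sides, so its own share is tied to the cut. These counts around it are a description, too. The median stayed between 5.57 and 8.54% under all alternatives tried.

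Tbr1 with 13.0% and Emx1 with 12.4% lay just above Slc17a7, and Nrn1 with 10.5% and Neurod2 with 9.9% below it. Slc30a3 with 8.73% and Neurod6 with 7.80% lay lower, within the 2-fold range. Neurod6 was under the Slc17a7 share in each library of side A, with 17.5% against 24.5% in library 57. Slc30a3 was under it in each but library 58. Bhlhe22 had 2.95%, Rspo2 2.46% and Adra1d 2.5%. Rspo2 encodes a secreted Wnt activator and Adra1d an adrenergic receptor. Low shares were also those of Fezf2 with 0.828%, Npr3, a natriuretic peptide receptor gene of layer 5, with 0.896%, and Grp, which encodes gastrin-releasing peptide, with 0.137%. With 1 library left out the Grp share was -0.0112 to 0.352%, negative without 57 or 34 and highest without 56, and the Npr3 share 0.516 to 1.07%, lowest without 58. Grp had 53.4 CPM in the other libraries but 0.382 CPM in side B and 0.454 CPM in side A.

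The 4 cortical genes above the range were Prss12 with 40.4%, Slc17a6 with 49.6%, Nr4a2 with 74.0% and Cplx3 with 89.6%. Cplx3 encodes complexin 3, a regulator of vesicle release found in deep layer 6 neurons, and Nr4a2 encodes a nuclear receptor of layer 6b and claustral neurons. Prss12 encodes neurotrypsin, a secreted protease of neurons, and was named after its values were seen. These genes had means of 12.0 to 16.6 CPM in the other libraries, so a given share of theirs stands for fewer CPM than the same share of Slc17a7.

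**Figure D2:**
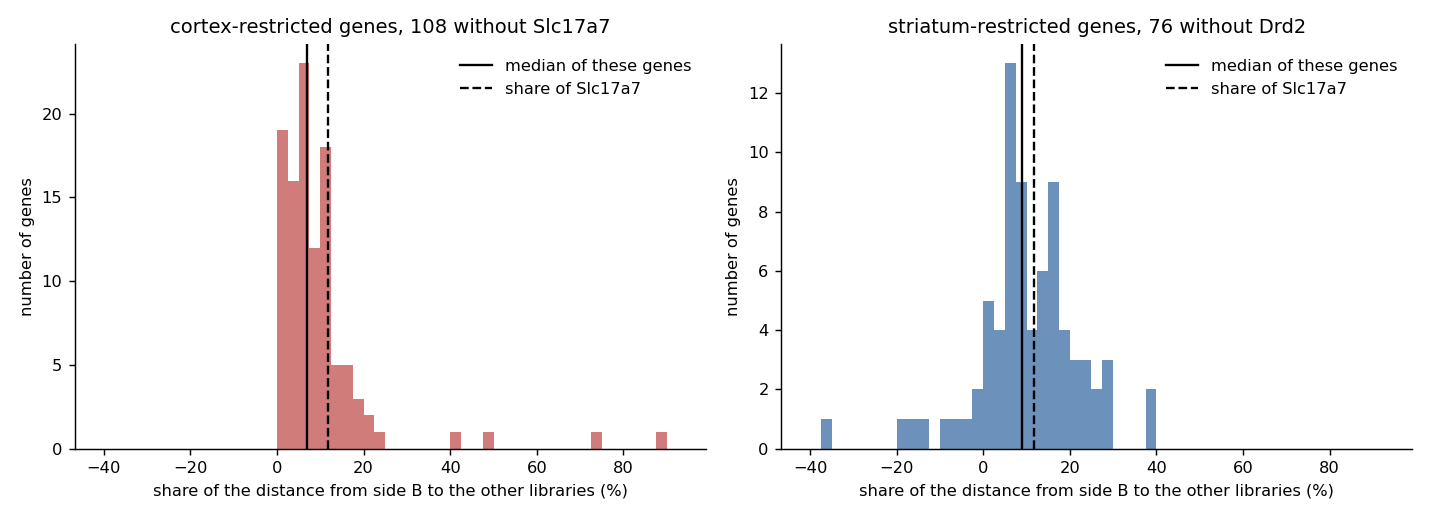
Number of genes by share of the distance from side B to the other libraries, in percent, for 108 cortex-restricted genes (left) and 76 striatum-restricted genes (right); the solid line is the median and the dashed line the 11.8% of Slc17a7. The cortical shares pile up under the dashed line with 4 genes far to the right, and the striatal shares run from -36.5 to 39.6%.

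The inequality was present within single libraries. Slc17a7 shares in libraries 53, 59, 3, 4, 63, 58 and 57 were 2.16, 2.60, 5.02, 12.7, 15.6, 20.0 and 24.5%. Tbr1 shares were 2.09, 3.88, 6.55, 14.2, 18.5, 21.3 and 24.8%, close to Slc17a7 in each library. Fezf2 shares ran from -0.245 to 2.04%, under the Slc17a7 share in every library.

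Cplx3 shares in the same order were 14.0, 28.7, 72.3, 63.5, 162, 111 and 175%, above the Slc17a7 share in every library. In 63, 58 and 57 Cplx3 was above its mean in the other 119 libraries. Nr4a2 shares were 11.3, 20.0, 50.6, 69.5, 148, 83.0 and 135%. Library 63 exceeded 58 for Cplx3, Nr4a2 and Slc17a6, although it had less Slc17a7, while 58 exceeded 63 for Slc30a3 and Nrn1.

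**Figure D3:**
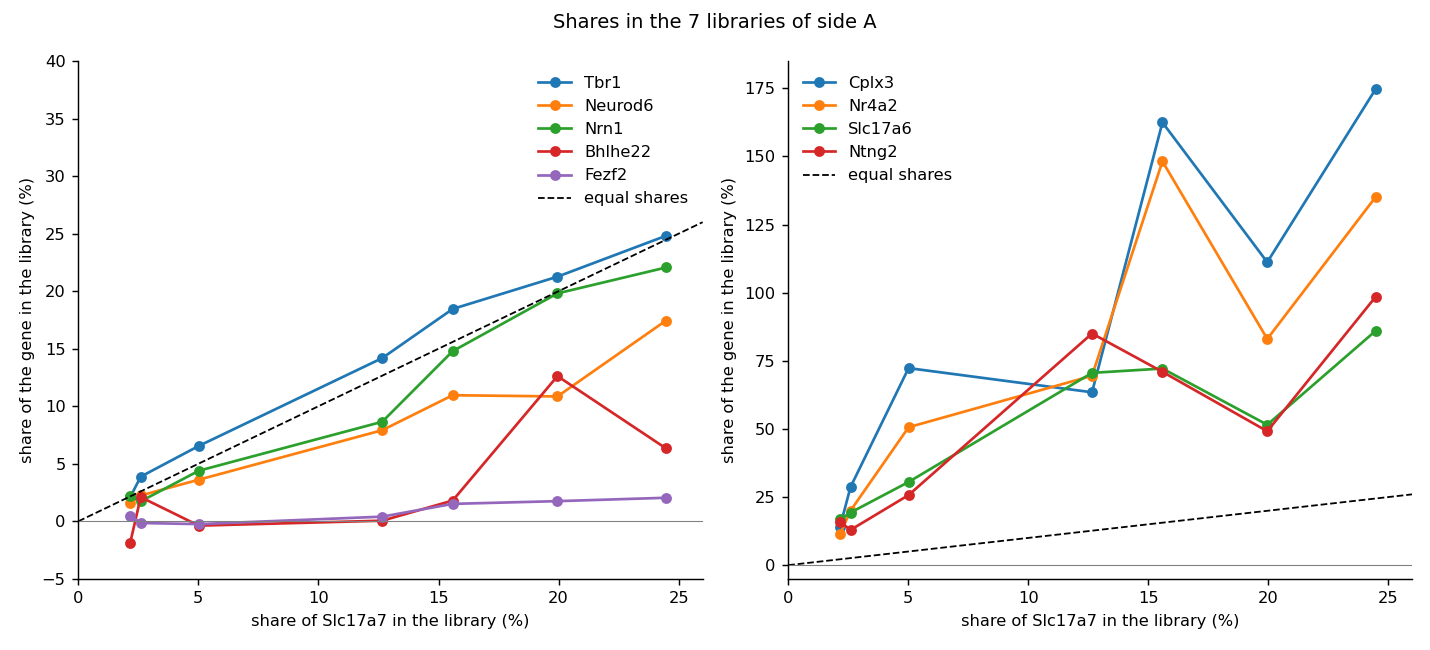
Share of 9 genes (vertical axis, percent) against the share of Slc17a7 (horizontal axis, percent) in the 7 libraries of side A; the dashed line marks equal shares and lines join a gene's libraries. Tbr1 and Nrn1 stay near the dashed line, Bhlhe22 and Fezf2 end below it at 6.33 and 2.04%, and Cplx3, Nr4a2, Slc17a6 and Ntng2 (right, wider scale) lie above it.

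Genes of single cortical layers and of neighbouring pallial regions differed from one another. Of 8 upper-layer genes 4 had a higher and 4 a lower mean in side A, with a median difference near 0 (-0.0047), and no sides were free of overlap. This absence is near the background, since 1.47% of all genes lay above and 0.844% below without overlap. Cux2, an upper-layer transcription factor gene, differed by 0.29, Rorb of layer 4 by 0.05, Lamp5 by -0.04, Rasgrf2 by -0.29 and Calb1, the calbindin gene, by -0.40. The last 3 are also made by striatal cells, and Lamp5 and Calb1 were higher in both sides than in the other libraries. Of 7 layer 5 genes 3 were higher and 4 lower, with Etv1 at -0.29, Vat1l at -0.27, Parm1 at 0.10 and Bcl6 at 0.11.

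Among 10 layer 6 genes 4 had differences above 1, and the other 6 were between -0.29 and -0.01. Cplx3 was 0.97, 0.99, 1.01 and 1.96 in libraries 64, 55, 34 and 56. In libraries 53, 59, 3, 4, 63, 58 and 57 it was 2.12, 2.66, 3.61, 3.46, 4.6, 4.12 and 4.7 (difference 2.38, SE 0.43, limma adjusted p = 0.0653). Library 56, the highest of side B, lay close to library 53 here. Nxph3, a neurexophilin gene of layer 6b, differed by 1.61 and Rprm, a cell-cycle inhibitor gene of layer 6, by 1.47. Ccn2, a matrix protein gene of layer 6b, differed by 1.04 and was higher in side A (4.55) than in the other libraries (4.47). Its sides overlapped, with 2.41 to 4.19 in side B and 3.91 to 5.14 in side A (limma adjusted p = 0.214). The lowest value was that of library 34. Tle4, Syt6 and Hs3st4, layer 6 genes that striatal cells also make, differed by -0.17, -0.15 and -0.19.

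The 7 genes of the claustrum and endopiriform nucleus had a median difference of 0.42, and in 3 side A lay without overlap above side B, as in 1.47% of all genes. Nr4a2 was 1.40, 1.54, 1.24 and 2.10 in libraries 64, 55, 34 and 56. In libraries 53, 59, 3, 4, 63, 58 and 57 it was 2.23, 2.57, 3.38, 3.72, 4.62, 3.92 and 4.50 (difference 1.99, SE 0.39, limma adjusted p = 0.0795). Ntng2, the gene of netrin G2, was 2.67 to 2.81 in side B and 3.34 to 5.07 in side A, a share of 51.2%. Lxn, which encodes latexin, a carboxypeptidase inhibitor of claustral neurons, was 4.05 to 4.17 against 4.30 to 5.06. Its mean of 4.7 in side A was above the 4.53 of the other libraries. Gnb4, Synpr and Oprk1, made by striatal cells as well, differed by -0.31, -0.08 and -0.01. The list names 2 regions and shares Nr4a2 with layer 6b, so these data do not separate them.

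Only 2 of the 5 amygdala genes had enough counts, Lypd1 with -0.14 and Cyp26b1 with 0.15. Rspo2, listed for the amygdala but at 5.21 in the other libraries, had means of 0.22 and 0.98. Beside Slc17a6, the 8 other thalamus genes compared lay between -0.11 and 0.48. Rora differed by 0.10, Lef1 by -0.09, Prkcd by 0.03, Tcf7l2 by -0.11 and Rgs16 by 0.48, and Gbx2 had means of 1.21 and 1.27. Thus Slc17a6 was the 1 called gene of the 9, against 0.0524% of all genes, with the limits given above. The 6 hippocampal genes compared lay between -0.33 and 0.13, and the 4 olfactory genes between 0.12 and 0.22. All 5 septal genes compared had positive differences with a median of 0.42, with Zic1 at 0.54 and Trpc4 at 0.45. Their sides all overlapped, which is near the background, as 1.47% of all genes lay above without overlap. Shares of Zic1 and Trpc4 were 67.4 and 18.1%.

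Striatal genes differed little. None of those listed passed the test, which is near the background, since 0.0524% of all genes passed. Of 16 striatal projection neuron genes 13 had a lower mean in side A, with a median difference of -0.11, and no sides were free of overlap. That count of 0 is also near the background, as 1.47% of all genes lay above and 0.844% below without overlap. Ppp1r1b differed by -0.08, Rgs9 by -0.10 and Adcy5 by -0.17. The lowest was Foxp1, a transcription factor gene, with -0.27, and the highest Scn4b, a sodium channel subunit gene, with 0.17. All 7 genes of the indirect pathway, including Drd2, which had set the membership, had lower means, with a median of -0.19. They included Adora2a with -0.19, Penk with -0.13, Gpr6 with -0.20 and Six3 with -0.27. Of 8 direct pathway genes 4 were higher and 4 lower, from Ebf1 with -0.34 to Eya1 with 0.43, and Tac1, the substance P gene, differed by 0.23, Drd1 by -0.11, Pdyn by -0.10 and Chrm4 by 0.05.

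There were 76 striatum-restricted genes besides Drd2, with at least 10 CPM in side B and 8 times the mean of the other libraries. Their shares had a median of 8.97%, with 25% under 5.5% and 25% above 17.1%, beside the 6.82% of the cortical genes. Of the 76, 46 lay within the 2-fold range of the Slc17a7 share, 21 below and 9 above, and 9 were negative, which means higher in side A. These shares and counts, too, are a description, since the side B mean chose the genes and Slc17a7, which set the range, cut the sides. With the limit at 6.0 the median was 16.7%. By library it was -4.64, 4.69 and -2.57% in 53, 59 and 3, and 27.8, 13.1, 19.1 and 20.5% in 4, 63, 58 and 57. The 3 libraries with little Slc17a7 thus lay near side B (-5.41 to 3.31%) and the 4 with more Slc17a7 above it, with library 4 highest.

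Genes listed for regions of the striatum all had overlapping sides. Over all genes 1.47% lay above and 0.844% below without overlap, so a count of 0 in lists of this size is near the background. Of 16 genes of the ventral striatum and accumbens shell 12 had a lower mean in side A, with a median difference of -0.25, and all had overlapping sides. Calcr, the calcitonin receptor gene of the accumbens, had the largest difference of the list, -0.76 (SE 0.35, limma adjusted p = 0.39). It was 5.91, 4.73, 5.52 and 4.78 in libraries 64, 55, 34 and 56. In libraries 53, 59, 3, 4, 63, 58 and 57 it was 4.20, 5.18, 4.33, 3.54, 5.11, 5.29 and 3.64, so the sides were mixed. Its order in side A was not that of Slc17a7: 4 and 57 were lowest, and 58 and 63, also rich in Slc17a7, were among the highest.

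Arhgap36, a GTPase regulator gene, showed the same 2 lowest libraries, with 3.66 in 4 and 3.28 in 57 against 4.13 to 4.71 in the rest of side A. Its values in side B were 4.20 to 5.63. Wfs1, an endoplasmic reticulum gene enriched in the ventral striatum, was 8.79 to 9.48 in side B and 8.41 to 9.06 in side A. Dlk1 and Peg10, both imprinted genes, differed by -0.41 and -0.40. Nts, the neurotensin gene, went the other way with 4.63 to 4.88 against 4.83 to 5.59, and Oxtr, the oxytocin receptor gene, differed by 0.54. Crym differed by -0.29 and Cartpt, the gene of the CART peptide, by -0.02.

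Of 6 dorsolateral genes 3 were higher and 3 lower, with a median near 0. Cnr1, the cannabinoid receptor gene, had means of 5.85 and 6.28, but it is also a cortical gene with 8.10 in the other libraries, and its share was 9.3%. Coch was 5.40 to 5.74 in side B and 4.63 to 5.53 in side A. Reln differed by 0.14 and Gpr155 by -0.03. Striosome genes had a median of 0.02, with Sema5b at 0.46, Kremen1 at 0.21, Oprm1, the mu opioid receptor gene, at 0.03, Lypd1 at -0.14 and Nnat at -0.21.

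**Figure D4:**
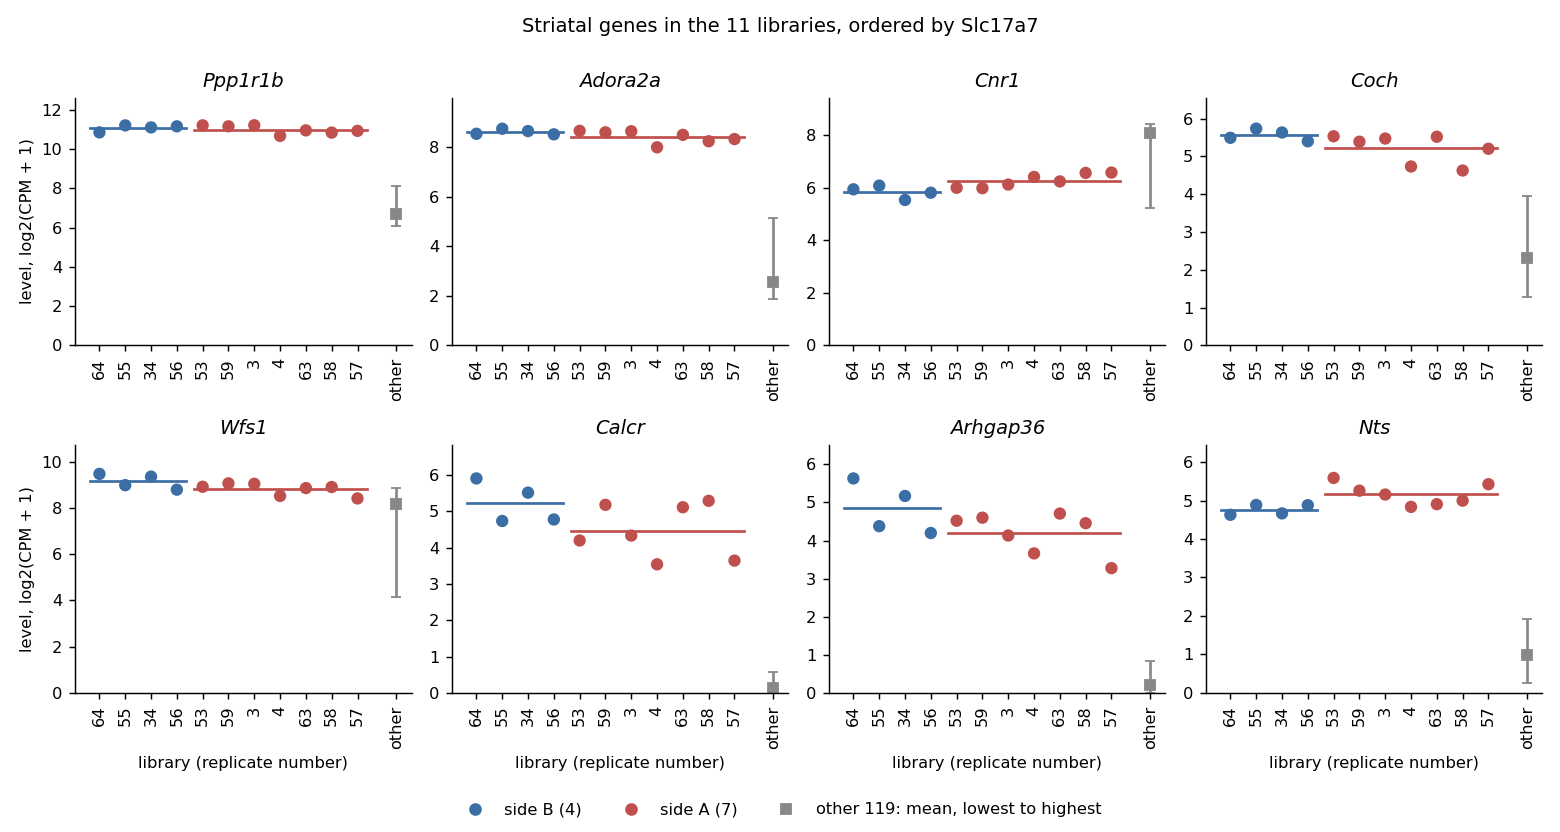
Level, as log2(CPM + 1), of 8 striatal genes in the 11 libraries in the order of Slc17a7, drawn as in the plot of cortical genes. Ppp1r1b and Adora2a stay near the same level on both sides, Calcr and Arhgap36 are lowest in libraries 4 and 57, and Nts is 4.63 to 4.88 in side B and 4.83 to 5.59 in side A.

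Neighbouring structures and local neurons were compared in the same way. Of 6 pallidal genes 3 lay without overlap above side B, as did 1.47% of all genes. Nefh, the heavy neurofilament gene, was 5.44 to 5.82 against 5.93 to 6.54, and Pvalb, the parvalbumin gene, 3.05 to 3.59 against 3.72 to 4.59. Npas1 was 2.55 to 2.63 against 2.68 to 3.21. Nkx2-1, a transcription factor of the ventral forebrain, differed by -0.39 and Lhx6 by -0.19. Of 13 interneuron genes 2 lay above and 1 below side B without overlap, against 1.47% and 0.844% of all genes. Vip, the gene of a peptide of cortical interneurons, was 0.19 to 0.98 against 1.17 to 2.54, and its share was 4.2%. Vip was under the comparison limit of 1 in all of side B and reached it through side A, so its separation supports nothing. Pthlh was 2.86 to 3.11 against 2.53 to 2.80, lower without overlap. Gad1, Gad2 and Sst differed by -0.05, -0.19 and 0.09. Cholinergic genes had a median of -0.18, with Chat at -0.22, Slc18a3 at -0.08, Slc5a7 at -0.18 and Lhx8 at -0.40.

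No gene fell past the threshold. Genes with large negative differences whose sides did not overlap were Zfp955a with -0.70, Dnah2 with -0.62, Cfap54 with -0.54, Iqgap2 with -0.52 and Ahi1 with -0.45. Their limma adjusted p ran from 0.0795 to 0.188. Dnah2 and Cfap54 encode proteins of motile cilia and Ahi1 one of primary cilia. Foxj1, the master regulator of motile cilia, was 2.30, 3.19, 3.07 and 2.46 in libraries 64, 55, 34 and 56 and 1.62 to 2.18 in side A. It was the only 1 of 4 ependymal genes compared whose sides did not overlap, and 0.844% of all genes lay below without overlap. Hydin differed by -0.61, Dynlrb2 by -0.56 and Rarres2 by 0.04, and the mean level over the 4 genes was 2.54 to 2.87 in side A and 2.92 to 3.57 in side B. Ependymal cells line the ventricle, and their part in the other differences was not tested.

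Markers of glia, vessels and blood also varied. All 14 oligodendrocyte genes had positive differences, with a median of 0.14, overlapping sides and none past the test. Over all genes 1.47% lay above without overlap and 0.0524% passed, so both absences are near the background. Mbp, the myelin basic protein gene, was 12.36 to 12.92 in side B and 12.70 to 13.49 in side A, against a mean of 10.71 in the other libraries. The difference thus pointed away from the other libraries, and the Mbp share was negative at -38.6%. Mobp and Mog differed by 0.26 and 0.15. Library 4 had the highest mean over the list, 9.04, against 8.37 to 8.77 in the rest of side A and 8.23 to 8.66 in side B.

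Of 12 astrocyte genes 10 had positive differences (median 0.13), with Gfap at 0.16, Slc1a2 at 0.13 and Gjb6 at 0.51, the largest. Blood genes had a median of 0.73, with Hba-a1 at 5.78 to 7.38 in side B and 6.07 to 8.61 in side A, highest in library 4. Meningeal fibroblast genes had a median of 0.38. Col1a1 was 3.65 in library 3 and 4.19 in library 4, against 2.46 to 3.19 in the other 9, and Igf2 was 5.35 and 4.72 there, against 3.62 to 4.47. Their part in the shares was not tested. The 22 ribosomal protein genes had a median difference of 0.04 and the 15 immediate early genes -0.07.

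**Figure D5:**
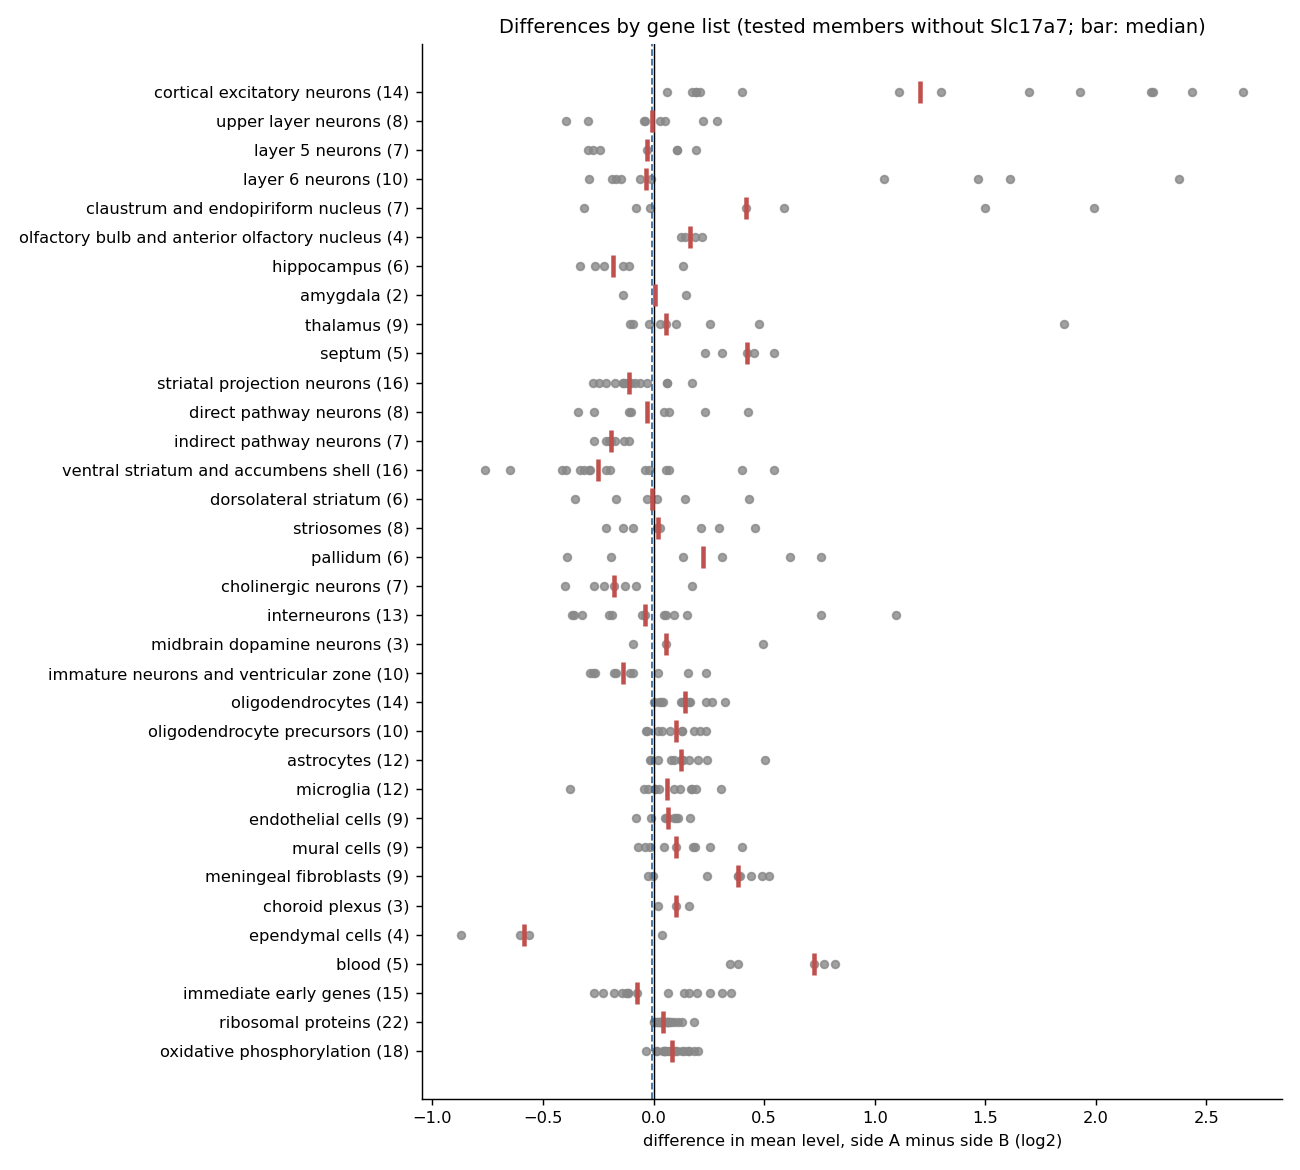
Difference in mean level between the sides (side A minus side B, log2) for each compared gene of 34 lists; grey points are genes, red bars list medians, numbers in parentheses the genes compared, and the dashed line the median over all genes. Cortical excitatory genes reach 2.67, layer 6 genes lie either under 0 or above 1, claustral genes run from -0.31 to 1.99, and striatal lists stay between -0.76 and 0.54.

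A last group of genes, singled out after their values were seen, was higher in side A than in both references. Every library of side A lay above all of side B in 225 of the 15277 genes compared (1.47%). In 8 of these the side A mean also lay above the highest of the other 119 libraries. Among the 8, Tfap2d had the largest difference. Tfap2d and Prdm12 had side B means of 0.49 and 0.30, under the comparison limit of 1, and reached it through side A. The count is thus a description and supports nothing. Cacng5, which encodes an auxiliary subunit of AMPA receptors, was 4.56 to 5.04 in side B, 5.09 to 5.43 in side A and at most 4.47 in the other libraries. Scrt2, a neuronal transcription factor gene, was 4.74 to 5.21, 5.21 to 5.49 and at most 4.83. Its sides nearly touched, at 5.213 in side B and 5.215 in side A.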

How the data were processed

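The members and the gene lists were chosen with earlier results of these data known. Per the submitters' processing notes, the authors quantified reads with kallisto 0.48. The deposited table holds log2 of estimated counts plus 1 per gene, checked on the file (38354 genes, 130 libraries, highest value 21.9). Of 164 samples in the labels, the other 34 were not analysed here. Linear values were scaled to a library sum of 1000000 (CPM), a pseudocount of 1 was added and log2 taken. The sides were compared by limma 3.58.1 (R 4.3.3; moderated two-sided test with a mean-variance trend) for genes whose mean level in the 11 libraries reached 1, with p adjusted by Benjamini-Hochberg and a threshold of 0.05. Methods for read counts were not run on the linear values, which are estimated counts. The test was run on simulated data before use. Labels do not say whether libraries come from separate extractions, so p-values measure the spread between these libraries. Depth was 18.9 to 45 in units of 1000000 counts, and a level near 0 rests on few counts.

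Named genes were the calls with a mean of at least 3 (up to 12 per direction, or, under 6 calls, the 6 largest differences without overlap), all cortical excitatory genes, and, of other lists, the first 4 compared members and the extremes. Others were chosen after their values were seen, and some genes that the rule names are not reported here. Alternatives were other scaling, filters, pseudocount, covariate, limits and left-out libraries. Tables and figures were made in Python 3.11.15 (pandas 2.3.3, numpy 2.4.6, matplotlib 3.10.9) and the permutation test in scipy 1.17.1.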

Additional observations from a re-analysis of the deposited data

Results flagged for a closer look

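Within each side, the highest and the lowest library of 130 measures (129 genes and the summed counts) were set against the rest, 260 comparisons in all, and 9 had a library far from the others of its side. Chance gives such a gap in about 1 of 20 groups, so this number is not above chance. In side B, library 56 stood apart as the highest for Neurod2 (1.25 against at most 0.72 in the other 3) and for Cplx3 (1.96 against at most 1.01). It is also the library of side B with the most Slc17a7. Library 55 was the lowest for Rora (3.92 against at least 4.04) and for Sst (7.58 against at least 7.77). In side A, library 57, which had the most Slc17a7, was the lowest for Iqgap2 (3.78 against at least 4.40) and the highest for Grp (0.94 against at most 0.52) and for Rarres2 (4.86 against at most 4.47). Library 4 was the highest for Tcf7l2 (4.01 against at most 3.42), and library 53 the lowest for Gjb6 (3.93 against at least 4.26).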

How the results depend on the processing

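The number of genes called was the least stable result. It was 8 (8 higher, 0 lower) as reported and 0 with median-of-ratios scaling, with a filter at a mean of 3, with no filter, and with the filter set on all libraries. It was 18, all higher, with a pseudocount of 0.1. With log2 summed counts as a covariate it was 70 (64 higher, 6 lower), and with all 130 libraries in 1 fit 171 (141 and 30). With Slc17a7 as a continuous measure it was 691 (436 and 255). With the limit at 5.0 it was 3 (2 and 1), and at 6.0 it was 272 (259 and 13). Leaving out each library in turn gave 0 to 73 calls, 0 to 72 higher and 0 to 3 lower. The cause was not tested. Genes without overlap numbered 233 to 463 above and 133 to 583 below side B with 1 library left out, both highest without library 56, and 510 below with the limit at 5.0. Leaving out a library can only keep or raise these counts, so a rise by itself shows no instability. The median difference of the interneuron list was -0.04 as reported and -0.0588 to 0.0538 with 1 library left out, positive without library 64 or 53. All other list medians, both median shares, the 10 single-gene shares recomputed and the depth difference moved by less than the spread between libraries under the alternatives run. For the shares this spread was the SD over side A, which includes its range of Slc17a7, so the criterion was wide. That SD was 12.3 for the striatal median share, which went from 8.97 to 16.7% with the limit at 6.0. The Grp share nevertheless changed sign without 57 or 34. For the shares the alternatives included limits of 4 and 16 times and the other limits on Slc17a7, added after the data were seen. Of the single-gene differences recomputed, 3 were classed as moved with a pseudocount of 0.1 and 3 with the limit at 6.0. No paired analysis was possible because the replicate numbers follow the order of deposit and the sides share none. Genes near a level of 0 rest on few counts, and 4 libraries set the side B mean.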
